A study of Mus musculus with 9 samples.

Results

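Neutrophil granules are filled in a fixed order as the cell matures. Here 32 genes linked to these granules were followed in mouse bone marrow mononuclear cells carrying MLL-AF9, a leukaemia fusion protein of MLL and AF9. The genes were taken by symbol from the RNA table, where all 32 were found among 22942 rows, and were read in the order of azurophil granule (9 genes), specific granule (11 genes), gelatinase granule (6 genes) and surface or exocytosis (6 genes). Lysozyme is stored in several granule types and is counted with the azurophil genes. The stages are listed groups, so not every member need encode a protein stored in that granule. MLL-AF9 cells had received the retroviruses MSCVneo-MLL-AF9 and MSCVpuro, and control cells had received MSCVneo and MSCVpuro, so both groups carried the drug-resistance viruses. All cells were of the B6.SJL strain, which has the CD45.1 allele. The labels state neither the age of the mice nor the time since transduction, nor whether cells were collected from culture or from mice.

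PolyA RNA was sequenced from 3 MLL-AF9 and 3 control libraries, but the authors' deposited table holds 1 pooled value per gene and group, taken as FPKM (fragments per kilobase of transcript, scaled to the depth of the library, a level per length that can be compared between genes). Spread between libraries and depth are therefore unknown, and no value below has an error of its own. A gene is said to have risen or fallen where the q-value in the authors' deposited table was under 0.05 and the mean of the groups was at least 1 FPKM; all 32 genes reached that mean. Each log2 difference sets FPKM + 1 of MLL-AF9 cells over that of controls. Its median over the 11538 genes with such a mean was 0.29, and differences are to be read against that shift. In bulk RNA, fewer cells of a type and less RNA per cell cannot be told apart.

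Azurophil granules form first, in promyelocytes, and hold myeloperoxidase and the neutrophil serine proteases. Specific granules follow in myelocytes and metamyelocytes with lactoferrin, cathelicidin and lipocalin, and gelatinase granules come last, in band and segmented cells. In mouse and human, C/EBPε is required for specific granule genes, while azurophil genes depend on earlier factors such as PU.1 and C/EBPα.

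Most genes of the later granules fell in MLL-AF9 cells, and of the 7 azurophil genes other than lysozymes 0 passed in either direction in the authors' deposited table, 1 of them, Ctsg, with an unadjusted p-value under 0.05. Of the 32 genes 17 fell, 1 rose and 14 did not pass, whereas of all 11538 genes 10.3% passed, 5.2% as lower and 5.13% as higher. By stage, 1 of 9 azurophil genes fell, as did 6 of 11 specific, all 6 gelatinase and 4 of 6 surface genes, and the gene that rose was the specific granule gene Olfm4. The median log2 difference was -0.44 for azurophil, -2.12 for specific, -3.83 for gelatinase and -1.78 for surface genes. Without the lysozymes Lyz1 and Lyz2, a split chosen after their values were seen, the azurophil median was 0.41, 0.11 above that of all genes. The genes were chosen with earlier results of these data known, and no test over a stage was made.

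**Figure D1:**
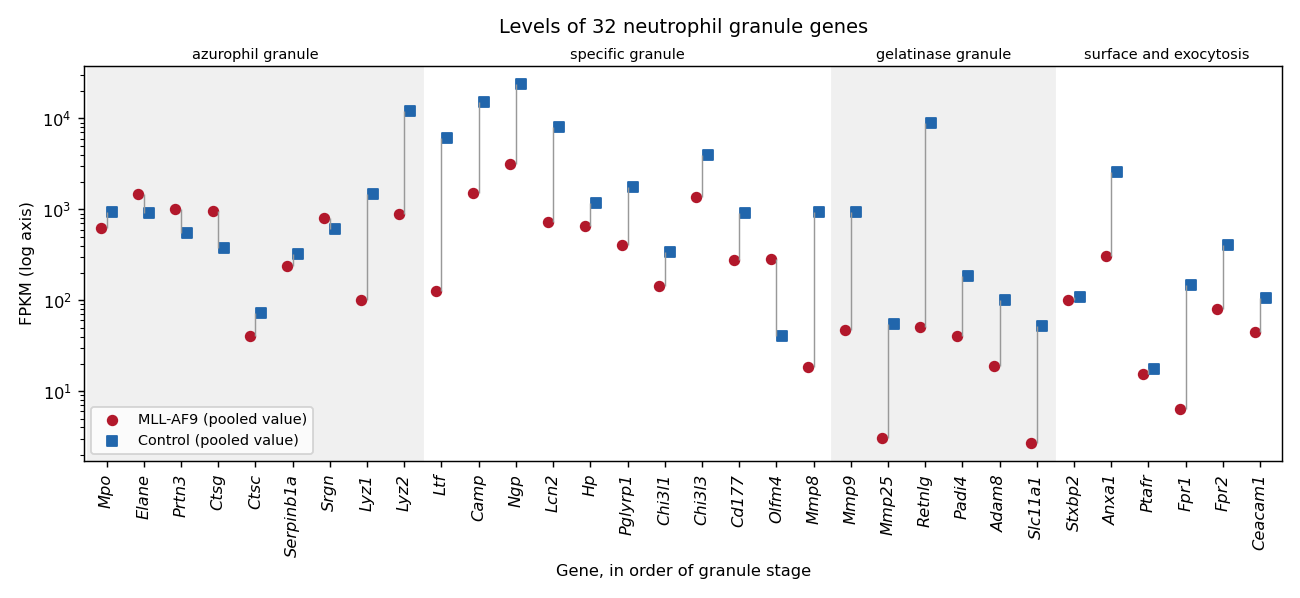
Each of the 32 genes is shown by its pooled FPKM (log axis) in MLL-AF9 cells (red circles) and control cells (blue squares), with genes in order of granule stage and a line joining the groups. Elane, Prtn3, Ctsg, Srgn and Olfm4 are the 5 genes whose MLL-AF9 point lies above the control point; Retnlg has the longest line, with 51.3 FPKM in MLL-AF9 cells and 8831 FPKM in controls.

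Of the azurophil genes, the enzymes stored in the granule came first. Mpo, the peroxidase that makes hypochlorous acid, was listed at 627 FPKM in MLL-AF9 cells compared with 927 FPKM in controls. Elane, neutrophil elastase, was at 1488 FPKM in MLL-AF9 cells compared with 904 FPKM in controls. Prtn3, proteinase 3, was at 1024 FPKM in MLL-AF9 cells compared with 550 FPKM in controls. None of these 3 genes passed, with q = 0.772, 0.597 and 0.432 in the authors' deposited table. Elane and Prtn3 are adjacent, with 0 protein-coding genes between them on chromosome 10 in the RefSeq gene order. Ctsg, cathepsin G, had the largest ratio of the proteases, at 955 FPKM in MLL-AF9 cells compared with 374 FPKM in controls. This 2.56-fold higher level did not pass either (p = 0.0227, q = 0.139 in the authors' deposited table).

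Relative to Mpo, a ratio that a common scaling factor cannot change, the Ctsg level was 1.52 in MLL-AF9 cells and 0.403 in controls, and the Elane level was 2.37 in MLL-AF9 cells and 0.976 in controls. The promoter windows of Elane and Ctsg are printed as examples of azurophil genes that did not pass. The windows of all genes printed here run from 250 bases before to 50 bases after the transcript start, are read along the gene's strand and come from RefSeq on build GRCm38.p6. Capitals mark matches, on either strand, to TTGCNNAA, a form of the C/EBP motif, or to GAGGAA, a core of the PU.1 motif. Elane lies on the plus strand at chr10:79886062-79886361 and Ctsg on the minus strand at chr14:56102525-56102824.
Elane: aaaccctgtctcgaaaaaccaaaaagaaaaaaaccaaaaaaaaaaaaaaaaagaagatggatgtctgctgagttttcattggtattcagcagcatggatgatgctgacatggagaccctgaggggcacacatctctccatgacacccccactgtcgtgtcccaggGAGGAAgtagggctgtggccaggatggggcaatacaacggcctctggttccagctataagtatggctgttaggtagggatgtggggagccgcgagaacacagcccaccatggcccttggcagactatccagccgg
Ctsg: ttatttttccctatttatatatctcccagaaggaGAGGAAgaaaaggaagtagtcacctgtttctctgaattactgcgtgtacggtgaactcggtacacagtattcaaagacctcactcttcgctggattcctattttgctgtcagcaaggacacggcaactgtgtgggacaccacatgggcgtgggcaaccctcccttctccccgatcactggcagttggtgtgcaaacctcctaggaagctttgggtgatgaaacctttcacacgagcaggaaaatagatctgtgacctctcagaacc
Elane has 1 PU.1 match that begins 85 bases before the start, Ctsg has 1 that begins 216 bases before it, and neither window has a C/EBP match.

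The genes that process or hold these enzymes did not pass. Ctsc, the dipeptidase that activates the serine proteases, was at 40.8 FPKM in MLL-AF9 cells compared with 72.0 FPKM in controls. Serpinb1a, an inhibitor of the same proteases, was at 239 FPKM in MLL-AF9 cells compared with 324 FPKM in controls. Srgn, the proteoglycan serglycin on which granule proteins are packed, was at 813 FPKM in MLL-AF9 cells compared with 613 FPKM in controls. The largest ratio of these 3 genes was that of Ctsc, 1.77-fold lower in MLL-AF9 cells (q = 0.380 in the authors' deposited table).

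Lysozyme, which cleaves bacterial cell walls, did not follow the proteases. Lyz1 fell 14.4-fold, to 101 FPKM in MLL-AF9 cells, against 1462 FPKM in controls (q = 1.38e-06 in the authors' deposited table). Lyz2, the myeloid lysozyme, was 13.8-fold lower, at 890 FPKM in MLL-AF9 cells compared with 12233 FPKM in controls, and did not pass (p = 0.0141, q = 0.101 in the authors' deposited table). The ratio of Lyz2 to Lyz1 was 8.77 in MLL-AF9 cells and 8.37 in controls. Reads may be shared between these adjacent genes, so their separate values are uncertain, and how the authors' counting treated them was not tested. The windows are printed to show how alike the pair is; both lie on the minus strand, Lyz1 at chr10:117292819-117293118 and Lyz2 at chr10:117282223-117282522.
Lyz1: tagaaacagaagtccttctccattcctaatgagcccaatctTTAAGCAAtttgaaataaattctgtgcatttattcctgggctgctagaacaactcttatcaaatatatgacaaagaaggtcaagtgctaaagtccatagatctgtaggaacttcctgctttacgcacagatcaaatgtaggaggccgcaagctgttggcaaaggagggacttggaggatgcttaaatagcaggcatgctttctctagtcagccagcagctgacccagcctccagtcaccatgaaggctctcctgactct
Lyz2: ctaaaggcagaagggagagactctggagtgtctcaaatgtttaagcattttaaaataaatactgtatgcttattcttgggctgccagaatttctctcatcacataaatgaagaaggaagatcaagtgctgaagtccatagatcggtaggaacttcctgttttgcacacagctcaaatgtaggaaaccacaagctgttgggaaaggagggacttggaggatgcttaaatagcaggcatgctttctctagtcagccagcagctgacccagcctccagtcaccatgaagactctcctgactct
After the start, 49 of 50 letters at the same distance from it are the same, as are all 50 of the 50 nearest before it and 152 of the 250 before it. The Lyz1 window has 1 C/EBP match, which begins 209 bases before the start, and the Lyz2 window has none.

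Specific granule genes held the highest levels of the 32 in both groups. Ngp, neutrophilic granule protein, a relative of cathelicidins and cystatins, was at 3162 FPKM in MLL-AF9 cells compared with 24122 FPKM in controls, a 7.63-fold fall. Camp, which encodes the antimicrobial peptide cathelicidin, fell 9.84-fold, to 1521 FPKM in MLL-AF9 cells, against 14966 FPKM in controls. Lcn2, lipocalin 2, which binds bacterial iron carriers, fell 11.1-fold, to 726 FPKM in MLL-AF9 cells, against 8093 FPKM in controls. The q-values of Ngp, Camp and Lcn2 in the authors' deposited table were 0.000599, 0.0339 and 0.0119. In MLL-AF9 cells Ngp and Camp were still the most abundant of the 32 genes.

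Ltf, lactoferrin, an iron-binding protein, fell further. It was at 127 FPKM in MLL-AF9 cells compared with 6006 FPKM in controls, a 47.2-fold fall whose q-value the authors' deposited table lists as 0. Mmp8, neutrophil collagenase, fell 50.8-fold, to 18.4 FPKM in MLL-AF9 cells, against 937 FPKM in controls (q = 1.73e-11 in the authors' deposited table). Pglyrp1, a peptidoglycan recognition protein that kills bacteria, fell 4.36-fold, to 401 FPKM in MLL-AF9 cells, against 1750 FPKM in controls (q = 0.00736 in the authors' deposited table). The falls of specific granule genes thus ran from 4.36-fold for Pglyrp1 to 50.8-fold for Mmp8. Camp, Ngp and Ltf, which share chromosome 9, differed in their falls; 8 protein-coding genes lie between Camp and Ngp and 20 between Ngp and Ltf.

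A further 4 specific granule genes were lower without passing. Hp, haptoglobin, which binds free haemoglobin, was at 648 FPKM in MLL-AF9 cells compared with 1162 FPKM in controls. Cd177, a surface glycoprotein of neutrophils, was at 277 FPKM in MLL-AF9 cells compared with 922 FPKM in controls. Chi3l1, a chitinase-like protein, was at 142 FPKM in MLL-AF9 cells compared with 340 FPKM in controls. Cd177 and Chi3l1 were 3.33-fold and 2.39-fold lower in MLL-AF9 cells, with p = 0.0313 and 0.0263 and q = 0.172 and 0.154 in the authors' deposited table. Chi3l3, the mouse chitinase-like lectin Ym1, was 2.94-fold lower, at 1352 FPKM in MLL-AF9 cells compared with 3968 FPKM in controls (q = 0.465 in the authors' deposited table). Its near-copy Chi3l4, which is not among the 32, was 2.95-fold lower, at 122 FPKM in MLL-AF9 cells compared with 359 FPKM in controls, and passed (q = 0.0481 in the authors' deposited table). Reads shared by Chi3l3 and Chi3l4 are possible and were not tested.

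Olfm4 went the other way. It encodes olfactomedin 4, a specific granule glycoprotein that in mouse and human is made by only some neutrophils. It rose 7.02-fold, to 282 FPKM in MLL-AF9 cells, against 40.1 FPKM in controls (q = 1.01e-05 in the authors' deposited table). The ratio of Olfm4 to Ltf was 2.21 in MLL-AF9 cells and 0.00667 in controls. Windows of Ltf, Ngp and Olfm4, on the plus strand at chr9:111019042-111019341, chr9:110419558-110419857 and chr14:80000052-80000351, are printed for the large fall, the highest level and the rise.
Ltf: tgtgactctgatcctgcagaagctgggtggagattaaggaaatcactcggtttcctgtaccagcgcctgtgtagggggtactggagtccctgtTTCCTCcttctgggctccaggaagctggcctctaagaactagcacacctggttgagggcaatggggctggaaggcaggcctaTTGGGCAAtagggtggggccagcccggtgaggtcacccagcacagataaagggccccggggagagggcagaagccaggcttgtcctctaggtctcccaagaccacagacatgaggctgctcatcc
Ngp: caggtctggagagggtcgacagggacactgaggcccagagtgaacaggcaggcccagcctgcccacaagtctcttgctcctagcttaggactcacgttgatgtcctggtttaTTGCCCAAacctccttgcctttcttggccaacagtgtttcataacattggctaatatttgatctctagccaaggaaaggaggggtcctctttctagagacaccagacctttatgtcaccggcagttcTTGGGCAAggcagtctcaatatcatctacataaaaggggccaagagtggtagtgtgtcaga
Olfm4: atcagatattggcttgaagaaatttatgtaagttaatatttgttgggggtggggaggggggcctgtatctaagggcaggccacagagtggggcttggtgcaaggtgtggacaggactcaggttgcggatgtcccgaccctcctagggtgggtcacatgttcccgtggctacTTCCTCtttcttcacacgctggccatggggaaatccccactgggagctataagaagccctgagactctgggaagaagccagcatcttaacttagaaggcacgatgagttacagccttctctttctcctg
The Ltf window has a C/EBP match that begins 75 bases before the start and a PU.1 match that begins 157 bases before it. Ngp has 2 C/EBP matches, which begin 138 and 11 bases before the start. Olfm4 has no C/EBP match and 1 PU.1 match, which begins 79 bases before the start.

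Every gelatinase granule gene fell. Retnlg, resistin-like gamma, a secreted protein of mouse neutrophils, fell 172-fold, to 51.3 FPKM in MLL-AF9 cells, against 8831 FPKM in controls (q = 2.07e-13 in the authors' deposited table). Mmp9, gelatinase B, the protease that names the granule, fell 20.2-fold, to 46.8 FPKM in MLL-AF9 cells, against 946 FPKM in controls (q = 4.98e-06 in the authors' deposited table). By abundance among the 11538 genes Retnlg had rank 2083 in MLL-AF9 cells and rank 7 in controls. Its window, on the plus strand at chr16:48872358-48872657, is printed as that of the gene with the largest fall.
Retnlg: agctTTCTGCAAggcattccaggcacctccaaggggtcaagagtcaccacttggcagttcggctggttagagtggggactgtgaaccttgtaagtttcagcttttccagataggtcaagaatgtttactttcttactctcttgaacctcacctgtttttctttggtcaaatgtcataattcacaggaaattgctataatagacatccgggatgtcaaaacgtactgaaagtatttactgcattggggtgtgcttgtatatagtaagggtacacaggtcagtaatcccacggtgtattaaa
It has 1 C/EBP match, which begins 246 bases before the start, and no PU.1 match.

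The membrane and enzyme genes of this stage stood at lower levels. Slc11a1, the divalent metal transporter Nramp1 that acts on phagosomes, fell 19.6-fold, to 2.69 FPKM in MLL-AF9 cells, against 52.7 FPKM in controls. Mmp25, the membrane-bound protease leukolysin, fell 18.1-fold, to 3.04 FPKM in MLL-AF9 cells, against 55.1 FPKM in controls. The q-values of Slc11a1 and Mmp25 in the authors' deposited table were 1.34e-07 and 1.40e-08. Adam8, a cell-surface metalloprotease, fell 5.23-fold, to 19.0 FPKM in MLL-AF9 cells, against 99.6 FPKM in controls (q = 0.000303 in the authors' deposited table). Padi4, the enzyme that citrullinates histones in neutrophil extracellular traps, fell 4.53-fold, to 40.9 FPKM in MLL-AF9 cells, against 185 FPKM in controls (q = 0.00181 in the authors' deposited table). No gene of this stage exceeded 51.3 FPKM in MLL-AF9 cells, while in control cells the lowest was at 52.7 FPKM.

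**Figure D2:**
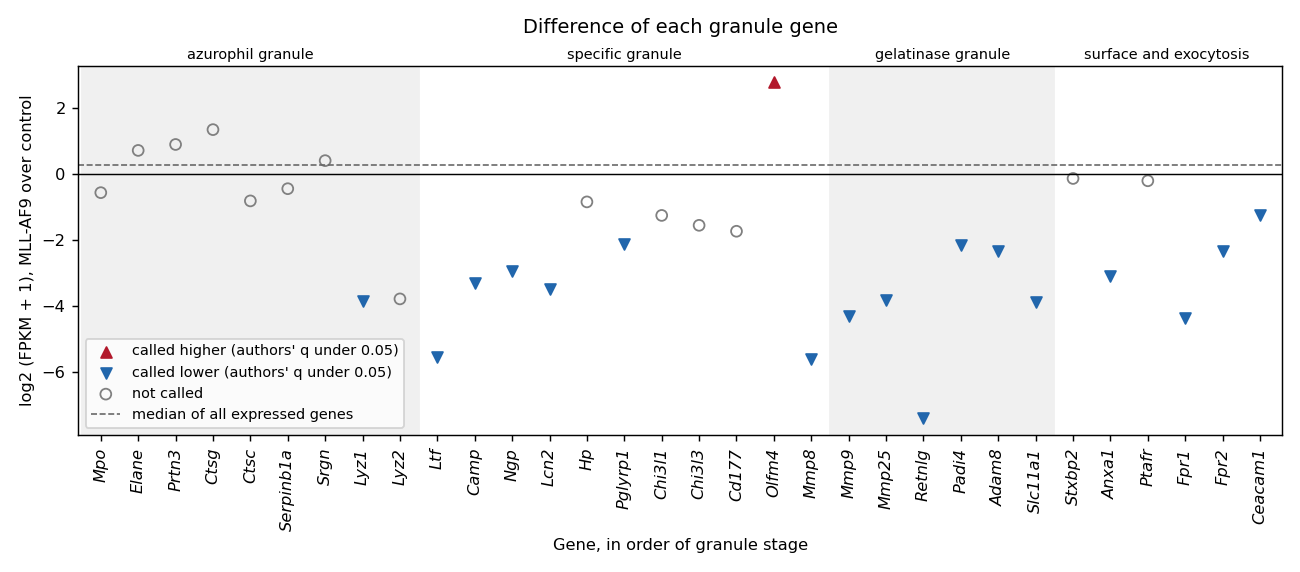
Points give the log2 difference of FPKM + 1, MLL-AF9 over control, for each gene in order of granule stage; filled triangles mark genes called from the authors' q-value and open circles genes that were not called. The dashed line is the median of all expressed genes, 0.29; all 6 gelatinase genes lie at -2.15 or below, and the azurophil genes other than the lysozymes lie between -0.81 and 1.35.

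Of the surface and exocytosis genes, the formyl peptide receptor genes Fpr1 and Fpr2 fell, as did Anxa1 and Ceacam1, while Ptafr and Stxbp2 did not pass. Fpr1, a receptor for bacterial formyl peptides, fell 23.4-fold, to 6.31 FPKM in MLL-AF9 cells, against 148 FPKM in controls (q = 4.31e-09 in the authors' deposited table). Its neighbour Fpr2, which binds formyl peptides and lipid mediators, fell 5.06-fold, to 81.1 FPKM in MLL-AF9 cells, against 410 FPKM in controls (q = 0.000633 in the authors' deposited table). Although the pair is adjacent on chromosome 17, the falls were of unlike size. Ptafr, the receptor of platelet-activating factor, was at 15.3 FPKM in MLL-AF9 cells compared with 17.7 FPKM in controls (q = 0.884 in the authors' deposited table).

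Anxa1, annexin A1, a phospholipid-binding protein of neutrophil granules and cytosol, fell 8.54-fold, to 305 FPKM in MLL-AF9 cells, against 2604 FPKM in controls (q = 0.00509 in the authors' deposited table). Ceacam1, an adhesion molecule, fell 2.39-fold, to 44.4 FPKM in MLL-AF9 cells, against 106 FPKM in controls (q = 1.05e-07 in the authors' deposited table). Its relative Ceacam2 was at 13.3 FPKM in MLL-AF9 cells compared with 40.5 FPKM in controls, and shared reads were not tested. Stxbp2, the syntaxin-binding protein Munc18-2 that is needed for granule fusion with the membrane, was at 101 FPKM in MLL-AF9 cells compared with 110 FPKM in controls (q = 0.929 in the authors' deposited table). Its log2 difference was -0.13, or -0.42 after the median of all genes was subtracted.

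The order of levels within each group, which no scaling can change, also differed. In MLL-AF9 cells the 6 highest of the 32 were Ngp, Camp, Elane, Chi3l3, Prtn3 and Ctsg, so that 3 of them were serine proteases. In control cells the 6 highest were Ngp, Camp, Lyz2, Retnlg, Lcn2 and Ltf. Among the 10 most abundant of all 11538 genes there were 0 of the 32 in MLL-AF9 cells and 5 in controls. Among the 50 most abundant there were 1 in MLL-AF9 cells and 8 in controls. Elane had rank 90 in MLL-AF9 cells and rank 137 in controls, Mpo had rank 185 in MLL-AF9 cells and rank 131 in controls, and Ngp had rank 23 in MLL-AF9 cells and rank 2 in controls. Mmp8 had rank 5123 in MLL-AF9 cells, close to the middle of the list, and rank 130 in controls. S100a9, dropped as a failed estimate, is left out of all ranks given here.

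**Figure D3:**
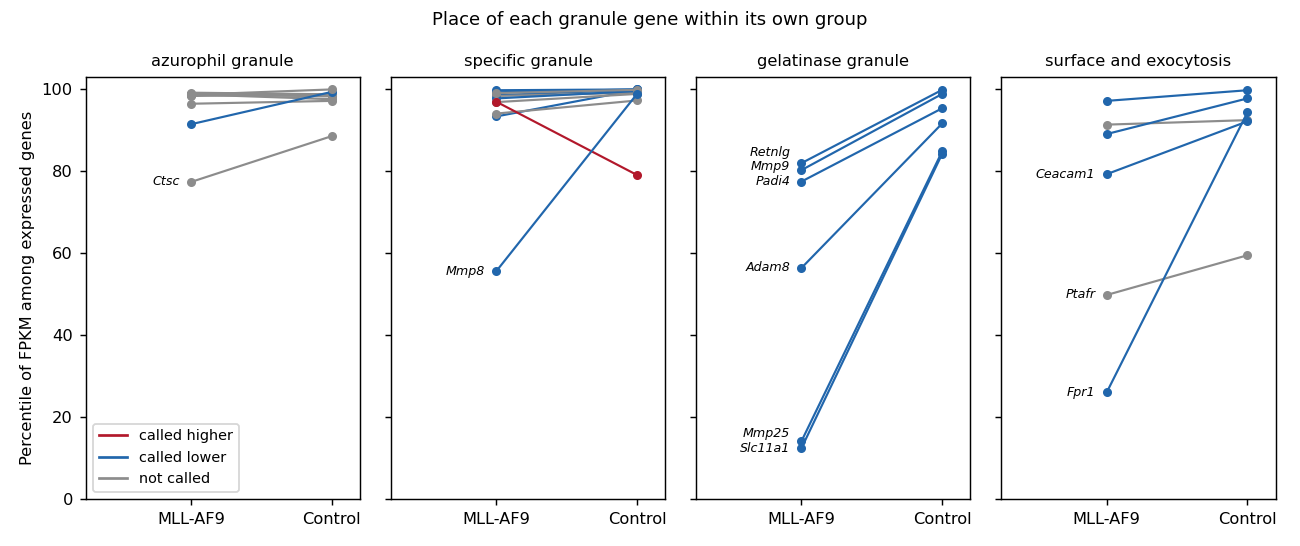
Each line joins a gene's percentile of FPKM among the 11538 expressed genes of MLL-AF9 cells (left) with that among the same genes of control cells (right), 1 panel per stage, coloured by the authors' call; the genes lowest in MLL-AF9 cells are named. Slc11a1 and Mmp25 lie at percentiles 12.4 and 14.1 in MLL-AF9 against 84.3 and 84.9 in control cells, and Olfm4 is the red line, at 97.0 in MLL-AF9 against 79.1 in control cells.

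Summed over the 32 genes, FPKM came to 15551 in MLL-AF9 cells and 93328 in controls. Azurophil genes without lysozymes summed to 5186 FPKM in MLL-AF9 cells compared with 3763 FPKM in controls, which was 33.4% of the sum of the 32 in MLL-AF9 cells and 4.03% in controls. The lysozymes summed to 991 FPKM in MLL-AF9 cells compared with 13694 FPKM in controls, or 6.37% in MLL-AF9 cells and 14.7% in controls. Specific granule genes summed to 8657 FPKM in MLL-AF9 cells compared with 62305 FPKM in controls, or 55.7% in MLL-AF9 cells and 66.8% in controls, and were the largest part of the sum in both groups. Gelatinase genes summed to 164 FPKM in MLL-AF9 cells compared with 10169 FPKM in controls, or 1.05% in MLL-AF9 cells and 10.9% in controls, a 62.1-fold difference. That fold rests largely on Retnlg, the most abundant of them in both groups: the other 5 summed to 112 FPKM in MLL-AF9 cells compared with 1339 FPKM in controls, an 11.9-fold difference. Surface genes summed to 553 FPKM in MLL-AF9 cells compared with 3396 FPKM in controls, or 3.56% in MLL-AF9 cells and 3.64% in controls. For each unit of azurophil FPKM without lysozymes there were 1.67 of specific granule FPKM in MLL-AF9 cells and 16.6 in controls, and 0.0316 of gelatinase FPKM in MLL-AF9 cells and 2.70 in controls. With the lysozymes counted among the azurophil genes, as the stage was defined, these ratios were 1.4 in MLL-AF9 cells and 3.57 in controls for specific granule genes, and 0.0265 in MLL-AF9 cells and 0.583 in controls for gelatinase genes. The ratio for specific granule genes was thus 2.55-fold lower in MLL-AF9 cells with the lysozymes and 9.92-fold lower without them, and that for gelatinase genes 22-fold and 85.6-fold lower.

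**Figure D4:**
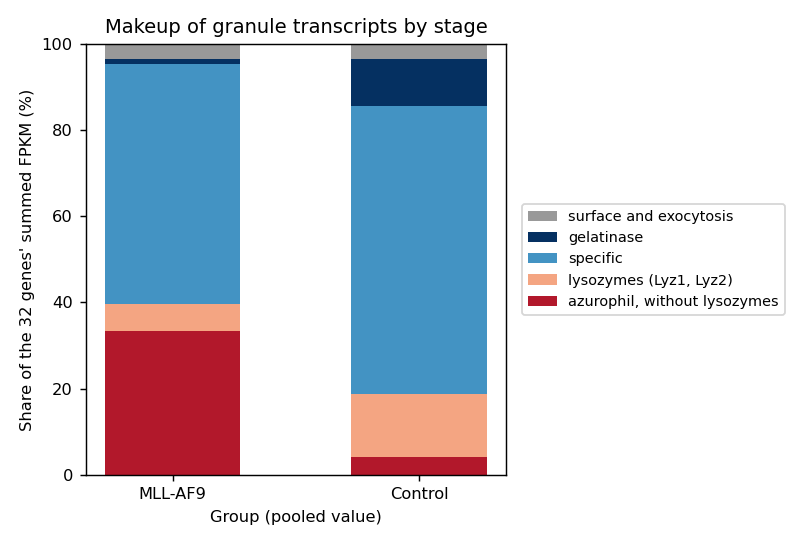
Stacked bars give each stage's share of the summed FPKM of the 32 genes, in MLL-AF9 cells (left) and control cells (right), with the lysozymes drawn apart from the other azurophil genes. Azurophil genes without lysozymes make up 33.4% in MLL-AF9 and 4.03% in control cells, and gelatinase genes 1.05% in MLL-AF9 and 10.9% in control cells.

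The size of a difference and the authors' q-value did not give the same order of genes. Lyz2, 13.8-fold lower, and Chi3l3, 2.94-fold lower, did not pass, whereas Ceacam1, 2.39-fold lower, had q = 1.05e-07 in the authors' deposited table. By an FPKM ratio of at least 2-fold with no p-value, 21 of the 32 genes were lower and 2 higher in MLL-AF9 cells, against 9.7% and 15.1% of all genes. The genes past 2-fold without a call were Lyz2, Chi3l1, Chi3l3 and Cd177, which were lower, and Ctsg, which was higher. Of the 25 granule genes whose mean of both groups reached 100 FPKM, 12 fell, against 7.05% of the 993 genes that abundant. Of those that fell, Mmp8, Mmp9, Retnlg, Padi4 and Fpr2 were under 100 FPKM in MLL-AF9 cells. They reached that mean through their control level, so the count is a description only.

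Promoter windows were found for 29 of the 32 genes, all but Serpinb1a, Hp and Mmp9. The C/EBP letters TTGCNNAA occurred in 8 of the 29, or 27.6%, in 12.2% of all 27025 RefSeq genes, counted likewise by gene over any of their windows, and in 10.8% of the 32851 windows themselves. The 8 genes were Lyz1, Ltf, Ngp, Lcn2, Mmp8, Retnlg, Adam8 and Anxa1. All 8 were among the 16 genes with a window that fell, and the other 8 of those 16 had none. The 12 that did not pass had none either, among them Lyz2, which was 13.8-fold lower, nor did Olfm4, which rose. The share with these letters among all genes that fell or did not pass was not computed. This split therefore has no background and was not tested. By stage these letters occurred in 1 of 8 azurophil, 4 of 10 specific, 2 of 5 gelatinase and 1 of 6 surface genes. The PU.1 letters GAGGAA occurred in 17 of the 29, or 58.6%, in 31.3% of all RefSeq genes and in 28.3% of all windows. By stage they occurred in 5 of 8 azurophil, 6 of 10 specific, 2 of 5 gelatinase and 4 of 6 surface genes. By call the PU.1 letters were in 9 of the 16 genes that fell, in 7 of the 12 that did not pass and in Olfm4. No match of one motif overlapped a match of the other. A match describes letters in a window and is neither a bound site nor a cause.

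Other genes of the neutrophil programme were divided. Of 10 further promyelocyte genes 2 rose and 2 fell, against 5.13% and 5.2% of all genes, with a median log2 difference of 0.35. Gfi1, a repressor needed for neutrophil formation, rose 2.93-fold, to 65.0 FPKM in MLL-AF9 cells, against 22.2 FPKM in controls, and Gusb, a lysosomal glucuronidase, rose 3.12-fold, to 161 FPKM in MLL-AF9 cells, against 51.4 FPKM in controls. Mgst1, a glutathione transferase, fell 5.21-fold, to 75.3 FPKM in MLL-AF9 cells, against 392 FPKM in controls. Fcnb, ficolin B, a lectin of myeloid granules, fell 4.32-fold, to 83.5 FPKM in MLL-AF9 cells, against 361 FPKM in controls. The falls of Mgst1 and Fcnb had q = 0.000316 and 0.00187 in the authors' deposited table. Of the 6 NADPH oxidase genes, whose product makes superoxide, 0 passed at a q-value or an unadjusted p-value under 0.05 in the authors' deposited table. All 6 were listed lower, from Cybb, at 172 FPKM in MLL-AF9 cells compared with 419 FPKM in controls, to Ncf4, at 243 FPKM in MLL-AF9 cells compared with 312 FPKM in controls.

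Of 7 matched granulocyte transcription factors, 1 fell and 0 rose. Counts of this and the next lists stand beside 5.2% of all genes that fell and 5.13% that rose. A count of 1 gene is too small to be read as a result about a list. Mxd1, a MYC antagonist of late granulocytes, fell 8.69-fold, to 18.9 FPKM in MLL-AF9 cells, against 164 FPKM in controls. Cebpe, which encodes C/EBPε, did not pass, at 83.7 FPKM in MLL-AF9 cells compared with 188 FPKM in controls (p = 0.0247, q = 0.148 in the authors' deposited table). Cebpa was at 39.0 FPKM in MLL-AF9 cells compared with 30.1 FPKM in controls (q = 0.747 in the authors' deposited table). Spi1 of this list was not matched by that symbol. Other symbols of the listed genes were not searched, so a missing match does not show that a gene is absent. The neutrophil surface and chemotaxis list has 15 genes, of which Csf3r, Ly6g and Ffar2 were not matched and Alpl lay under a mean of 1 FPKM. Of the other 11 genes 4 fell and 0 rose, with a median log2 difference of -1.07. Cxcr2, the receptor by which neutrophils leave the marrow, fell 16.8-fold, to 10.9 FPKM in MLL-AF9 cells, against 182 FPKM in controls, and C5ar1, the receptor of complement C5a, fell 11.7-fold, to 9.74 FPKM in MLL-AF9 cells, against 114 FPKM in controls. Plaur, the urokinase receptor, fell 3.80-fold, to 49.1 FPKM in MLL-AF9 cells, against 187 FPKM in controls. Of 8 granule release genes 2 fell and 0 rose, namely Stx11, a syntaxin, at 10.6 FPKM in MLL-AF9 cells compared with 62.9 FPKM in controls, and the small GTPase gene Rab3d, at 28.4 FPKM in MLL-AF9 cells compared with 88.0 FPKM in controls.

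Some markers of other marrow cells moved in the same comparison, in which 5.2% of all genes fell and 5.13% rose. The pan-leukocyte genes Ptprc, Coro1a and Laptm5 did not pass. Ptprc was at 142 FPKM in MLL-AF9 cells compared with 257 FPKM in controls, Coro1a at 861 FPKM in MLL-AF9 cells compared with 1458 FPKM in controls, and Laptm5, listed the other way, at 632 FPKM in MLL-AF9 cells compared with 483 FPKM in controls. Of 5 eosinophil genes 3 fell, namely Epx, Prg2 and Ccr3. The sum of all 5 was 58.8 FPKM in MLL-AF9 cells compared with 262 FPKM in controls. All 3 T lymphoid genes (Cd3d, Cd3e and Cd3g) fell, and their sum was 1.67 FPKM in MLL-AF9 cells compared with 39.5 FPKM in controls. The B lymphoid genes Cd79a, Cd79b and Vpreb3 and the erythroid genes Car1, Car2 and Epor fell as well. Cd79a was at 2.97 FPKM in MLL-AF9 cells compared with 210 FPKM in controls, and Car1 at 2.14 FPKM in MLL-AF9 cells compared with 90.1 FPKM in controls. Among 6 genes of monocytes and macrophages, C1qb fell and 0 rose, and their sum was 386 FPKM in both groups. Among 4 genes of mast cells and basophils, Fcer1a and Hdc fell and Cpa3 rose. Of 4 stromal and endothelial genes 1 reached a mean of 1 FPKM, Pecam1, which rose. The others, Col1a1, Col1a2 and Cdh5, were under 1 FPKM in both groups and were listed lower in MLL-AF9 cells, without passing. None of these markers was listed at 0, and their part in the results was not tested.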

How the data were processed

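PolyA RNA of 3 MLL-AF9 and 3 control libraries was used, grouped by the sample titles. Per the submitters' processing notes, TopHat 1.4.1, Cufflinks 1.3.0, Bowtie 0.17.2, CASAVA 1.8.2 and MACS 1.4 were used with mouse build mm9; the labels give no settings. The deposited table gives 1 value per gene and group, which is read as an FPKM of the authors' making; the header names no unit. Per the file headers it also holds a p-value and a q-value, from a test of the authors that the headers do not name. The labels' protocol speaks of duplicates per genotype although 3 RNA libraries per group are listed, so which libraries were pooled is unknown, as is whether they came from separate animals. The TruSeq kit named in the labels does not keep strand, so reads of a gene and an antisense partner cannot be told apart. No depth is given, so no counting interval could be set.

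No test was computed anew. The plan had limma for values per library, and the authors' calls where only group values were given, which was the case. A failed estimate, S100a9 (0 FPKM in controls beside a p-value of 1), was dropped, so that 11538 genes reached a mean of 1 FPKM. Fold differences are ratios of FPKM; log2 differences use a pseudocount of 1 and understate low genes. All 32 genes are named, plus, of each list of other neutrophil genes, up to 3 called genes with the smallest q-value. For cell type markers the plan had levels of the defining genes; here levels are given for the pan-leukocyte genes and as sums or for single genes of other lists, and genes that passed are named; some markers are not reported here. Gfi1, Cebpe, Cebpa, Cybb, Ncf4, Chi3l4, Ceacam2 and Fpr3 were added after their values were seen. The genes and lists were chosen with earlier results of these data known. The 5hmC regions were not used, since no mm9 gene positions were given. Motifs were searched in RefSeq promoter windows of GRCm38.p6. The calculations were tested on simulated data and used pandas 2.3.3 and numpy 2.4.6 in Python 3.11.15, with matplotlib 3.10.9 for plots. Alternatives were other pseudocounts (0.1 and 5), filters, thresholds and scalings.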

Additional observations from a re-analysis of the deposited data

How the results depend on the processing

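The log2 difference of all 32 genes kept its sign with a pseudocount of 0.1 or 5, with median centring and with quantile normalization. Stage medians, in the order azurophil, specific, gelatinase and surface, were -0.73, -2.42, -4.12 and -2.08 with median centring, -0.39, -2.27, -3.99 and -1.86 with quantile normalization, and -0.43, -2.11, -2.91 and -1.72 with a pseudocount of 5. With a pseudocount of 0.1 the gelatinase median was -4.19 and the surface median -1.80. Without Lyz1 and Lyz2 the azurophil median changed sign to 0.41, because those are its lowest values. With an unadjusted p-value under 0.05, and likewise with a 2-fold ratio alone, an alternative chosen after seeing the data, 2 granule genes were higher in place of 1 (both reach a mean of 100 FPKM and have no C/EBP letters), and 2 azurophil genes were lower and 1 higher. Under the same settings the transcription factor list had 3 lower genes and the surface and chemotaxis list 8. A 2-fold ratio alone gave 1 lower NADPH oxidase gene. With a q-value under 0.01, 0 promyelocyte genes were higher and 1 granule release gene was lower. No other count of called genes moved by over 1.5 times under these settings, without a minimum mean or with one of 5 FPKM, among the 32 genes, the stages, the lists of other neutrophil genes and, added after seeing the data, the marker lists, the abundant granule genes and the genes with or without C/EBP letters. Some counts moved by just that limit. Among them, specific granule genes that fell went from 6 to 4 with a q-value under 0.01 and to 9 with a 2-fold ratio alone. The motif counts themselves have no alternative. Leaving out a library was not run, since values are pooled. No paired analysis was possible because the table holds no value per library. The planned comparison with 5hmC regions was not run. Depth and the spread between libraries are unknown, so the precision of every level is unknown too.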
